A study of Homo sapiens with 15 samples.

Results

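The ends of a glutamine limitation series were compared in MCF10A, an immortalized human breast epithelial cell line that does not form tumours, described by the labels as wild type. The comparison used 6 of the 15 libraries: 3 biological replicates grown at 0.04 mM glutamine, the most severe limitation, and 3 grown at 0.28 mM, the mildest. All cells were kept in glutamine-free DMEM/F12 to which glutamine was added back, and the full medium at 2.5 mM was left out of the test. The middle concentrations, 0.12 and 0.20 mM with 3 replicates each, entered the fit so that 12 libraries shared 1 estimate of the spread. The labels do not say how long the cells were held at each concentration, or whether the replicates came from separate passages or days. Of 62754 Ensembl genes in the counts table, 13828 had enough counts to be tested, and no library had less than 99.72% of its counts in them.

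Glutamine is the most abundant free amino acid in blood and in most culture media. It is a source of glutamate, and it donates nitrogen to purines, pyrimidines, asparagine and hexosamines. Low amino acids are known to be sensed in the cytosol through uncharged tRNA. This leads to translation of the transcription factor ATF4, which in turn acts on the transcription of its targets. Amino acids are also sensed at the lysosome through the kinase complex mTORC1. That complex governs the making of ribosomes and the translation of mRNAs that start with a run of pyrimidines.

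Depth was uneven. Gene counts were 11228596, 6454088 and 3704170 in replicates 1, 2 and 3 at 0.04 mM, and 13361406, 8420992 and 8140642 at 0.28 mM. Mitochondrial rRNA took 0.0206, 0.0228 and 2.97% of the counts at 0.04 mM against at most 0.0064% at 0.28 mM, so that the shallowest library, replicate 3 at 0.04 mM, also stood apart in this measure. It is 1 of 2 libraries above 1%, the other being replicate 3 at 0.12 mM. Of 19 basal mammary markers 18 were tested, and their summed level was 27911 to 40098 CPM (read counts normalised to library size) at 0.04 mM and 24744 to 40072 CPM at 0.28 mM. Of 21 luminal markers 11 were tested and 6, among them PGR, ELF5 and KIT, had 0 counts in all 6 libraries. The luminal markers still summed to 1506.4 to 1677 CPM at 0.04 mM and 1542.5 to 1731.1 CPM at 0.28 mM. Immune markers summed to 8.38 to 14 CPM at 0.04 mM and 7.31 to 10.3 CPM at 0.28 mM, with 7 of 13, including CD3D, CD3E and NKG7, at 0. Endothelial markers summed to 90.5 to 108 and 87.6 to 101 CPM, with 5 of 10 at 0.

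Few genes separated the ends. With the replicate number as a block, 17 of the 13828 genes passed an adjusted p of 0.05 (0.123%), 9 of them higher at 0.04 mM (0.0651%) and 8 lower (0.0579%). Their log2 changes ran from 0.26 to 0.95 in size, and the median over all genes tested was 0.0049. All 17 kept 1 sign in the 3 replicate pairs, as 17% of all genes did upwards and 15.7% downwards, but in only 3 of them (SLITRK6, TM9SF2 and TMA7) did the libraries of the 2 groups not overlap. Over all genes 6.03% did not overlap (2.73% higher and 3.3% lower). The threshold cut through a crowd of like genes: 41 more had adjusted p from 0.05 to 0.06, the first of them 0.0526, and 118 (0.853%) were under 0.10. At an unadjusted p under 0.05 there were 1574 genes (11.4%), of which 857 were higher (6.2%) and 717 lower (5.19%). Without the block no gene passed, and 292 had an unadjusted p under 0.05. Single libraries moved the count: it was 59, 2 and 9 without replicate 1, 2 or 3 at 0.04 mM and 14, 1 and 8 without replicate 1, 2 or 3 at 0.28 mM.

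**Figure D1:**
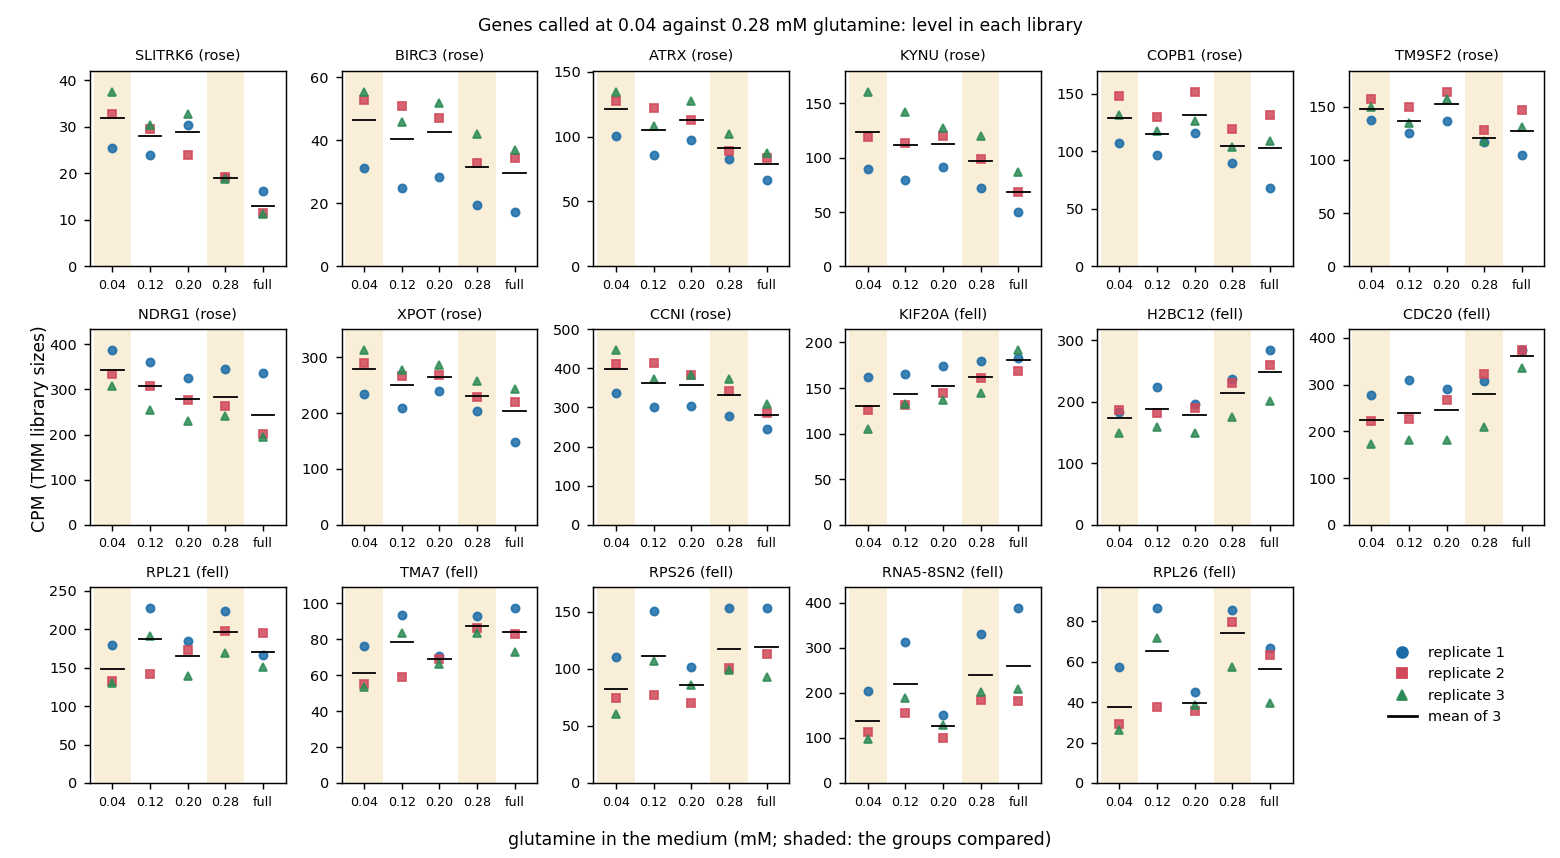
Level of the 17 genes that passed, in CPM on a linear axis from 0, in each of the 15 libraries, by glutamine concentration in mM (full is 2.5 mM). Symbols are replicates, bars are means of 3, and shading marks the compared groups. Replicates keep their order in many genes, as in BIRC3, where replicate 1 was lowest at each concentration, so that shaded groups overlap while each pair differs in 1 direction.

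Of the 8 genes that fell, the largest changes were in genes of the ribosome. Ribosomal protein mRNAs belong to the class whose 5′ ends carry a pyrimidine run, through which mTORC1 controls their translation. The stretch from 10 bases before to 20 bases after the annotated start is shown for the 3 that fell and for TMA7, with runs of 8 or more C or T in capitals (RefSeq, GRCh38.p14, 5′ to 3′).

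RPL26: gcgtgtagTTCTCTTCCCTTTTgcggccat
RPS26: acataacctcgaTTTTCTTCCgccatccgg
RPL21: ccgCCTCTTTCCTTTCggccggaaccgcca
TMA7: cagacgctccgtttccggtggcagggtctg

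These windows are chr17:8383174-8383203 (minus strand), chr12:56041908-56041937, chr13:27251548-27251577 and chr3:48440247-48440276 (plus strand). A run of this kind was in 3430 of 27305 promoter windows of the same length (12.6%), and in 50 of 63 ribosomal protein genes with an entry (79.4%). TMA7 has none, its longest run being 5 bases. A run in the window is a description of the sequence, and translation was not measured in these libraries.

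RPL26, a protein of the large subunit (ENSG00000161970, chromosome 17, 8377516 to 8383193), was at 57.5, 29.2 and 26.2 CPM in replicates 1, 2 and 3 at 0.04 mM and at 85.7, 79.5 and 57.5 CPM at 0.28 mM. Each 0.04 mM library lay below its partner, and the groups met where replicate 1 at 0.04 mM was level with replicate 3 at 0.28 mM. The gene fell by 0.95 on the log2 scale (SE 0.157, edgeR adjusted p = 0.00752), with pair differences of -0.57, -1.44 and -1.13. RPS26, of the small subunit (ENSG00000197728, chromosome 12, 56041918 to 56044697), was at 110, 74.7 and 60.8 CPM against 153, 101 and 99.2 CPM. Replicate 1 was high in both groups, which is why they overlap. It fell by 0.50 (SE 0.0906, adjusted p = 0.0154). RPL21, a large subunit protein (ENSG00000122026, chromosome 13, 27251558 to 27256568), had 180, 133 and 131 CPM against 223, 198 and 169 CPM. It fell by 0.41 (SE 0.0850, adjusted p = 0.0379), again with replicate 1 at 0.04 mM inside the range of the 0.28 mM group. Ribosomal protein genes have many processed copies in the genome, so their counts are uncertain.

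TMA7, named for its association with the translation machinery (ENSG00000232112, chromosome 3, 48440257 to 48444208), was at 76.0, 55.0 and 53.2 CPM at 0.04 mM and at 93.2, 86.1 and 83.5 CPM at 0.28 mM. Its groups did not overlap, and it fell by 0.49 (SE 0.0960, adjusted p = 0.0251). Exons of other genes cover 53.2% of its exonic bases, and the strand rule of the counting is not known here, so its counts are uncertain. A copy of 5.8S rRNA, RNA5-8SN2 (ENSG00000276700), had 204, 113 and 97.8 CPM against 331, 185 and 202 CPM. Each library was lower than its partner at 0.28 mM, with replicate 1 highest in both groups. It fell by 0.78 (SE 0.0855, adjusted p = 8.5e-06), the smallest adjusted p of the comparison. The libraries were depleted of rRNA before sequencing, and the part of that step in this value was not tested. Near-identical copies, one of them listed under the same name, make its counts uncertain.

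Leaving out 1 library at a time, RNA5-8SN2 passed in all 6 cases (adjusted p 5.31e-05 to 0.000778). RPL26 did not pass without replicate 2 (-0.88, adjusted p = 0.159) or 3 (-0.83, 0.0581) at 0.04 mM, or replicate 2 at 0.28 mM (-0.70, 0.138). RPS26 was lost without replicate 3 at 0.04 mM (-0.39, adjusted p = 0.0955) and without replicates 1 (-0.50, 0.0648) and 2 (-0.45, 0.153) at 0.28 mM. TMA7 passed without replicate 1 at 0.04 or at 0.28 mM (adjusted p = 0.0183 and 0.0371) and had adjusted p from 0.0659 to 0.283 without any other. RPL21 passed only without replicate 1 at 0.04 mM (adjusted p = 0.0426) and otherwise had 0.0638 to 0.369.

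The remaining genes that fell have roles in cell division and the packing of new DNA. CDC20 activates the anaphase-promoting complex (ENSG00000117399, chromosome 1, 43358981 to 43363203). Its level was 277, 222 and 172 CPM at 0.04 mM and 308, 322 and 210 CPM at 0.28 mM, a fall of 0.32 (SE 0.0672, adjusted p = 0.0395). Replicate 3 was lowest in both groups. KIF20A, a mitotic kinesin of cytokinesis (ENSG00000112984, chromosome 5, 138179112 to 138187723), was at 162, 126 and 105 CPM against 179, 161 and 145 CPM and fell by 0.30 (SE 0.0628, adjusted p = 0.0398). H2BC12 encodes an H2B histone (ENSG00000197903, chromosome 6, 27138293 to 27146858), had 183, 186 and 149 CPM against 237, 230 and 175 CPM, and fell by 0.31 (SE 0.0598, adjusted p = 0.0251). In all 3 genes the highest 0.04 mM library lay above the lowest 0.28 mM library while every pair was lower. In bulk RNA, fewer cells in a phase of the cycle and less of a transcript per cell cannot be told apart. H2B genes are near-identical in sequence, so the split of reads among them is uncertain.

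Each of these 3 calls was lost on leaving out any of several libraries. CDC20 passed without replicate 1 at 0.04 mM (adjusted p = 0.0440) or at 0.28 mM (0.0197) and not without any other (0.0923 to 0.383). KIF20A passed only without replicate 1 at 0.04 mM (0.0246, otherwise 0.0526 to 0.292), and H2BC12 only without replicate 3 at 0.04 mM (0.0452, otherwise 0.0569 to 0.239). The log2 change stayed between -0.42 and -0.23 for CDC20, -0.38 and -0.24 for KIF20A and -0.34 and -0.25 for H2BC12. Among genes of the same direction that just missed the threshold were PHF19, a Polycomb accessory protein (-0.33, adjusted p = 0.0540), and TSR1, a factor of 40S subunit maturation (-0.25, adjusted p = 0.0540), which other genes' exons overlap over 20.8% of its length.

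The largest rise among the 9 genes that passed in that direction was in SLITRK6, a transmembrane protein with leucine-rich repeats (ENSG00000184564, chromosome 13, 85792790 to 85799419). It had 25.5, 32.7 and 37.6 CPM at 0.04 mM and 19.3, 19.2 and 18.8 CPM at 0.28 mM. The 0.28 mM libraries were nearly equal and all 0.04 mM libraries stood above them. The gene rose by 0.70 (SE 0.127, adjusted p = 0.0154). ATRX, a chromatin remodeller that deposits the histone variant H3.3 (ENSG00000085224, chromosome X, 77504880 to 77786216), was at 101, 128 and 135 CPM against 83.0, 89.0 and 102 CPM. It rose by 0.39 (SE 0.0708, adjusted p = 0.0154), with replicate 1 at 0.04 mM just under replicate 3 at 0.28 mM. KYNU, kynureninase of tryptophan breakdown (ENSG00000115919, chromosome 2, 142877664 to 143055833), had 89.8, 119 and 161 CPM against 72.6, 98.6 and 120 CPM. The order of replicates was the same in both groups, and it rose by 0.33 (SE 0.0691, adjusted p = 0.0398).

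BIRC3, also called cIAP2, is a ubiquitin ligase of the NF-kB pathway and one of its best known target genes. A stretch of its promoter is shown because NF-kB target genes appear again below, with matches to the NF-kB consensus on either strand in capitals (RefSeq, GRCh38.p14, chr11:102317274-102317373, plus strand).

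BIRC3: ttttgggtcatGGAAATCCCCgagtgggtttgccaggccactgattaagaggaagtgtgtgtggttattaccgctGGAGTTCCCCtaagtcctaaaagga

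The matches GGAAATCCCC and GGAGTTCCCC begin 199 and 135 bases before the annotated start. The consensus was matched in 2958 of 27305 promoters of 300 bases (10.8%) and in 12 of 26 promoters of the inflammatory and NF-kB list (46.2%). BIRC3 (ENSG00000023445, chromosome 11, 102317484 to 102339403) was at 31.2, 52.8 and 55.4 CPM at 0.04 mM and 19.6, 32.8 and 42.0 CPM at 0.28 mM. Replicate 1 was far below the others in both groups, and each pair rose (0.67, 0.68 and 0.40). The fitted rise was 0.58 (SE 0.0969, adjusted p = 0.00752). It was lost without replicate 2 at 0.04 mM (0.59, adjusted p = 0.132) or at 0.28 mM (0.51, 0.153). SLITRK6 and ATRX passed only without replicate 1 at 0.04 mM (adjusted p = 0.00467 and 0.0258) or at 0.28 mM (0.0331 and 0.0261), with 0.0923 to 0.237 and 0.0569 to 0.239 otherwise. KYNU passed in none of the 6 cases (0.0506 to 0.239).

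The 5 other genes that rose changed by 0.26 to 0.30 each. XPOT exports tRNA from the nucleus and is a known ATF4 target (ENSG00000184575, chromosome 12, 64404392 to 64451125). Its level was 235, 289 and 313 CPM at 0.04 mM and 204, 229 and 258 CPM at 0.28 mM, a rise of 0.27 (SE 0.0531, adjusted p = 0.0251). NDRG1, a stress and hypoxia response gene (ENSG00000104419), had 388, 333 and 307 CPM against 346, 263 and 241 CPM and rose by 0.28 (SE 0.0535, adjusted p = 0.0251). COPB1 (ENSG00000129083), a coat protein of vesicles returning from the Golgi, was at 107, 148 and 132 CPM against 90.1, 120 and 103 CPM and rose by 0.30 (SE 0.060, adjusted p = 0.0342). TM9SF2 (ENSG00000125304), a membrane protein of the Golgi and endosomes, had 137, 157 and 149 CPM against 116, 128 and 118 CPM. Its groups did not overlap and it rose by 0.29 (SE 0.0578, adjusted p = 0.0326). CCNI (ENSG00000118816) encodes cyclin I. It had 336, 411 and 447 CPM against 279, 343 and 372 CPM and rose by 0.26 (SE 0.0535, adjusted p = 0.0342). Of these, NDRG1 passed only without replicate 1 at 0.04 mM or at 0.28 mM (adjusted p = 0.0246 and 0.0331), with 0.0724 to 0.241 otherwise. XPOT and COPB1 passed only without replicate 1 at 0.04 mM (0.0281 and 0.0406), with 0.0626 to 0.239 and 0.0928 to 0.283 otherwise. TM9SF2 (0.0510 to 0.239) and CCNI (0.0574 to 0.253) passed in none.

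The mitochondrial 16S rRNA, MT-RNR2, had a far larger difference than any gene that passed, and did not pass in the main test. It was at 124, 143 and 17640 CPM at 0.04 mM and at 40.3, 5.89 and 37.6 CPM at 0.28 mM, a difference of 6.25 (SE 1.37, adjusted p = 0.0540). The groups did not overlap, but 1 library, replicate 3 at 0.04 mM, carried nearly all of the level. Without that library the MT-RNR2 log2 change was 4.73 (adjusted p = 0.198), and without both libraries over 1% mitochondrial rRNA it was 2.31 (0.357). It passed in 10 of 22 alternative settings. Ribosomal RNA is the target of the depletion step, and the part of that step in this value was not tested.

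The 0.12 and 0.20 mM groups share no library with the ends, so they give a second step in the same direction of dose, with the block and the estimate of spread in common. Only 2 genes passed there (0.0145%), both higher at 0.12 mM, and 1251 had an unadjusted p under 0.05 (9.05%), 554 higher (4.01%) and 697 lower (5.04%). One was RNA5-8SN2, which rose by 0.76 between 0.20 and 0.12 mM (SE 0.0843, adjusted p = 1.2e-05) although it fell by 0.78 between 0.28 and 0.04 mM. Levels were 314, 154 and 189 CPM at 0.12 mM and 151, 99.0 and 129 CPM at 0.20 mM. Of the 17 genes, 4 had the same sign in the middle step (NDRG1, CCNI, CDC20 and KIF20A) and 13 the opposite sign. The share of all genes with opposite signs in the 2 steps was not computed. All genes sorted by transcript length also ran in opposite directions in the 2 steps, as given below. RPL26 was at 86.5, 37.6 and 71.6 CPM at 0.12 mM and at 45.2, 35.8 and 38.4 CPM at 0.20 mM, a difference of 0.67 (adjusted p = 0.138). RPS26 differed by 0.35 (adjusted p = 0.228), RPL21 by 0.17 and TMA7 by 0.18, all higher at the lower concentration. On the other side COPB1 differed by -0.20 (adjusted p = 0.333), TM9SF2 by -0.16 (0.442) and BIRC3 by -0.07 (0.843).

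**Figure D2:**
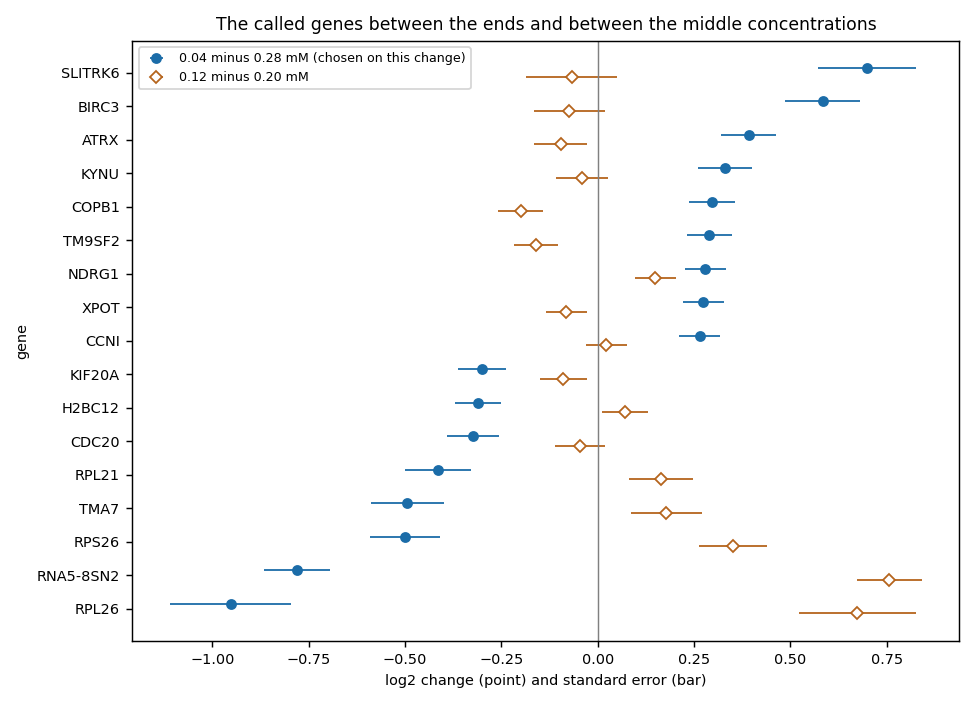
Log2 change of the 17 genes between the ends (0.04 minus 0.28 mM, filled circles, on which they were chosen) and between the middle concentrations (0.12 minus 0.20 mM, open diamonds), with standard errors from 1 fit of 12 libraries. In 13 of 17 genes the diamond lies on the other side of 0, most widely for RPL26 and RNA5-8SN2.

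Group means of the 17 genes across the 4 limited concentrations were in order of dose in 3 cases, CCNI (398, 363, 357 and 331 CPM from 0.04 to 0.28 mM), CDC20 (224, 239, 246 and 280 CPM) and KIF20A (131, 143, 152 and 162 CPM). Both middle means lay between the ends in 13 genes and 1 of them in the other 4. The genes were chosen for a gap between the ends, which favours middle means inside it. These counts therefore do not show a graded response. In full medium the mean lay beyond the 0.28 mM mean, away from 0.04 mM, for 8 of the 9 that rose and 5 of the 8 that fell. For example, SLITRK6 was at 12.98 CPM in full medium and KYNU at 68.5 CPM, while RPL26 at 56.5 CPM lay between its ends. The share of all genes with such a full medium mean was not computed. These counts therefore have no background and do not show a response that extends to full medium. A slope over the 12 limited libraries, per halving of glutamine, passed for 0 genes by edgeR and for 24 by DESeq2, which gave 12064 genes no adjusted p, and 1063 genes (7.69%) had an unadjusted p under 0.05, 587 with a rise towards 0.04 mM (4.25%) and 476 with a fall (3.44%). NDRG1 came nearest, at 0.11 per halving (SE 0.0199, adjusted p = 0.0738), with means of 343, 308, 278 and 283 CPM.

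Genes that handle glutamine were next, from a panel of 20 with enzymes, carriers, ATF4 targets and growth regulators. None passed, and 5 had an unadjusted p under 0.05, 4 higher and 1 lower. Over all genes 0.123% passed and 11.4% had such an unadjusted p, 6.2% higher and 5.19% lower. SLC38A2, a sodium-coupled carrier of small neutral amino acids, had 401, 625 and 477 CPM at 0.04 mM against 337, 473 and 421 CPM at 0.28 mM, a difference of 0.28 (SE 0.0616, adjusted p = 0.0540). It was higher in every pair and lay just outside the threshold, and its groups overlapped. GFPT2, the first enzyme of the hexosamine pathway and a user of glutamine, had 28.7, 44.9 and 47.3 CPM against 25.2, 26.9 and 40.7 CPM (0.37, adjusted p = 0.150). The glutamine synthetase gene GLUL, which makes glutamine from glutamate, had 292, 245 and 245 CPM against 335, 264 and 270 CPM (-0.15, adjusted p = 0.224). The cystine-glutamate exchanger SLC7A11 differed by 0.27 (adjusted p = 0.203). In that gene replicate 3 at 0.04 mM was highest, at 156 CPM, and replicate 1 was at 56.2 and 54.5 CPM in the 2 groups.

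The other panel genes were close together. The glutamine carrier SLC1A5 was at 495 ± 22.3 CPM at 0.04 mM and 511 ± 16.8 CPM at 0.28 mM (SD, n = 3), and SLC38A1 at 536 ± 28.0 and 538 ± 45.6 CPM. ATF4 mRNA had 460 ± 104 CPM and 446 ± 103 CPM, a difference of 0.05 (adjusted p = 0.804). Replicates of ATF4 differed more than the groups, from 363 to 570 CPM at 0.04 mM and from 361 to 561 CPM at 0.28 mM. TRIB3, an ATF4 target that feeds back on it, was at 180 ± 35.7 and 180 ± 58.4 CPM. The serine enzymes PHGDH (0.07) and PSAT1 (0.11), the leucine carrier SLC7A5 (0.04), the mTORC1 inhibitor SESN2 (0.01), MYC (-0.01) and CDKN1A (0.02) all had adjusted p over 0.5. ASNS, DDIT3 and CHAC1 were too low for a comparison, at group means under 4 CPM, and other genes' exons cover 44.6% of ASNS, 39.6% of DDIT3 and 23.8% of SLC1A5. CHAC1, for instance, had 0.373, 2.92 and 7.84 CPM at 0.04 mM and 0.624, 1.20 and 5.66 CPM at 0.28 mM.

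**Figure D3:**
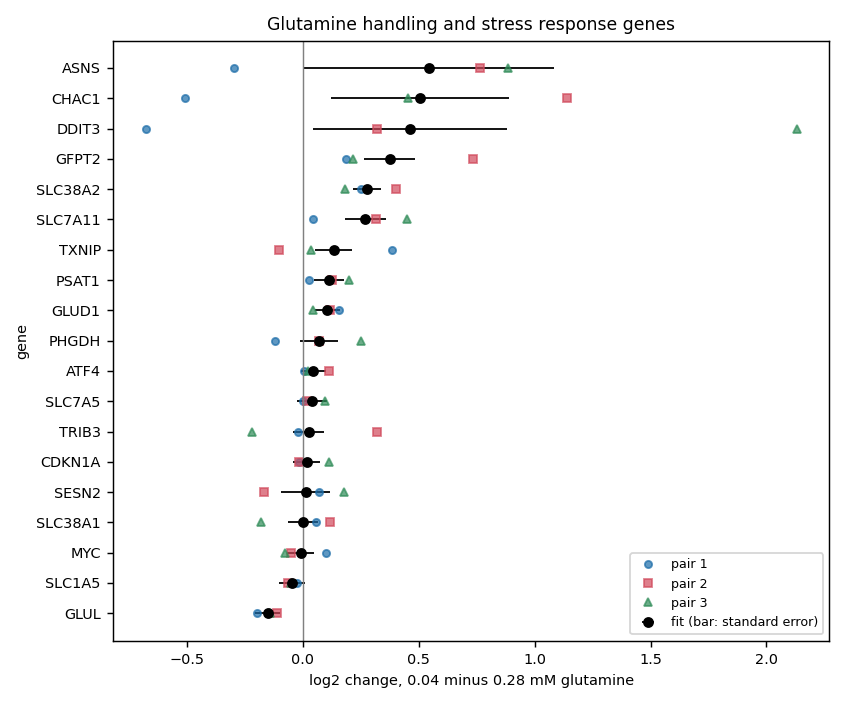
Log2 change between 0.04 and 0.28 mM for 19 of the 20 panel genes: black points and bars are the fit and its standard error, symbols the 3 replicate pairs. SLC38A2, SLC7A11 and GFPT2 are above 0 in every pair and GLUL is below 0 in every pair, while DDIT3 ranges from -0.68 to 2.13.

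Beyond the panel, 47 gene lists were described by their counts and medians, to be read against 6.2% of all genes higher and 5.19% lower at an unadjusted p under 0.05, a median of 0.0049, and 51.4% of changes above 0 and 48.6% below. Of 35 tested members of the ATF4 list (37 listed), 1 rose, XPOT, and 28 had a change above 0, with a median of 0.071 and 6 higher and 1 lower at that unadjusted p. Pair medians were 0.037, 0.069 and 0.095, with 13, 13 and 10 members below 0. Without the 2 libraries with over 1% mitochondrial rRNA the median was 0.030 and 17 of the 35 were below 0, so the count of 28 was not stable. ADM2, a peptide hormone gene under ATF4, had 1.58, 2.15 and 12.2 CPM at 0.04 mM and 0.858, 0.601 and 6.84 CPM at 0.28 mM (0.97, SE 0.327, adjusted p = 0.207). Replicate 3 carried most of both means, 5.30 and 2.77 CPM, and the other libraries were near the floor. Amino acid carriers had a median of 0.098 over 24 tested members of 30, with 7 higher, 0 lower and none past the adjusted threshold. SLC1A4, a carrier of alanine and serine, was at 17.8 against 13.1 CPM (0.45, adjusted p = 0.204). Enzymes of glutamine and glutamate, 21 tested of 22, were spread around a median of -0.0083 with 4 higher and 2 lower. Nutrient sensing and mTORC1 regulators had a median of 0.014 over 32 members, 3 higher and 0 lower, led by SESN1 (0.35, adjusted p = 0.172). Aminoacyl-tRNA synthetases, several of which are ATF4 targets, had a median of 0.0022 over 20 members.

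Lists of ribosome genes had medians below 0 in the fit, though not in every pair. Of 79 cytosolic ribosomal protein genes 77 were tested, 3 fell, and 70 had a change below 0, with a median of -0.099 and 22 lower and 0 higher at an unadjusted p under 0.05. Pair medians were -0.089, -0.24 and 0.014, and in the middle step 70 of 77 were above 0 with a median of 0.094. Scaled to the ERCC spike-ins their median was 0.028, a change of sign that comes with the scaling. That scaling moved the median of all genes by 0.123, to 0.127, and the list stayed below that median. The other lists whose ERCC value is given stayed below it too. RPL37 was next in line (-0.36, adjusted p = 0.0540). The 48 ribosome biogenesis genes had a median of -0.089 (0.037 with ERCC scaling), with 17 lower and 2 higher, and were below 0 in both steps (-0.024 in the middle). Among them NOP56, a core protein of box C/D snoRNPs, was at 229 against 268 CPM (-0.23, adjusted p = 0.0737), POLR1A, the largest subunit of RNA polymerase I, at 277 against 315 CPM (-0.19, 0.148) and TCOF1, a factor of rRNA gene transcription, at 403 against 455 CPM (-0.17, 0.154). Translation factors had a median of -0.046 over 39 members (0.068 with ERCC scaling), with EIF5A at 880 against 1020 CPM (-0.21, adjusted p = 0.172).

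Replication-dependent histone genes, which are transcribed in S phase to package new DNA, were the list furthest below 0. Of 58 listed 50 were tested and all 50 had a change below 0, from -0.35 to -0.065 with a median of -0.17. At an unadjusted p under 0.05 29 were lower and 0 higher, 1 fell past the adjusted threshold (H2BC12), and 27 were lower in every pair against 15.7% of all genes. The linker histone H1-2 was at 440 against 529 CPM (-0.26, adjusted p = 0.0540), H2BC17 at 93.9 against 115 CPM (-0.30, 0.0540) and H2BC14 at 63.0 against 79.0 CPM (-0.34, 0.0540). Pair medians were -0.20, -0.27 and -0.051. With ERCC scaling the median was -0.047, with 35 of 50 below 0. In the middle step the list went the other way, with 42 of 50 above 0 and a median of 0.079. Their mRNAs are short, with a median of 506 bases for the longest annotated transcript, which bears on the length pattern given below.

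Cell cycle lists with longer transcripts had medians below 0 in both steps (above 0 between the ends with ERCC scaling, which put all genes at 0.127). The G2 and M phase list had a median of -0.076 over 51 tested members (0.033 with ERCC scaling), with 18 lower and 0 higher at an unadjusted p under 0.05 and 2 that fell. In the middle step its median was -0.088 with 37 of 51 below 0. Pair 1 stood apart, with a median of 0.032 against -0.16 and -0.23. TACC3, a spindle protein, was at 134 against 164 CPM (-0.29, adjusted p = 0.0699) and UBE2C, the ubiquitin-conjugating enzyme that works with CDC20, at 87.4 against 106 CPM (-0.27, 0.0946). S phase and replication genes had a median of -0.080 over 43 members (0.047 with ERCC scaling), 7 lower and 2 higher, with CDC6, a licensing factor, at 89.2 against 105 CPM (-0.23, adjusted p = 0.117) and the helicase subunits MCM7 (-0.18), MCM3 (-0.18) and MCM2 (-0.19, with 23.6% exonic overlap) close to it. CCNG2, a cyclin found in resting cells, was at 38.7 against 27.3 CPM (0.48, adjusted p = 0.0540) with no overlap between groups.

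Mitochondrial genes were divided by where they are encoded. The nuclear-encoded respiratory chain had a median of -0.093 over 76 members (0.034 with ERCC scaling), 16 lower and 0 higher, led by UQCR10 (-0.33, adjusted p = 0.0726) and COX6A1 (-0.50, 0.0925). Its pair medians were -0.068, -0.17 and -0.028, with 43 of 76 below 0 in pair 3. In the middle step it went the other way, with 50 of 76 above 0 and a median of 0.042. Mitochondrial ribosomal proteins had a median of -0.078 over 75 of 78 (0.047 with ERCC scaling), with 13 lower and 2 higher. The 13 mRNAs encoded in mitochondria had a median of 0.14, 6 higher and 1 lower. MT-CO1 was at 4254 against 3670 CPM (0.21, adjusted p = 0.233) and MT-ND3 at 172 against 203 CPM (-0.25, 0.0770). Their pair medians were 0.25, -0.052 and 0.16, and 0.094 remained without the 2 libraries with over 1% mitochondrial rRNA. Proteasome subunits had a median of -0.063 (0.064 with ERCC scaling) with 9 lower and 3 higher of 43.

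**Figure D4:**
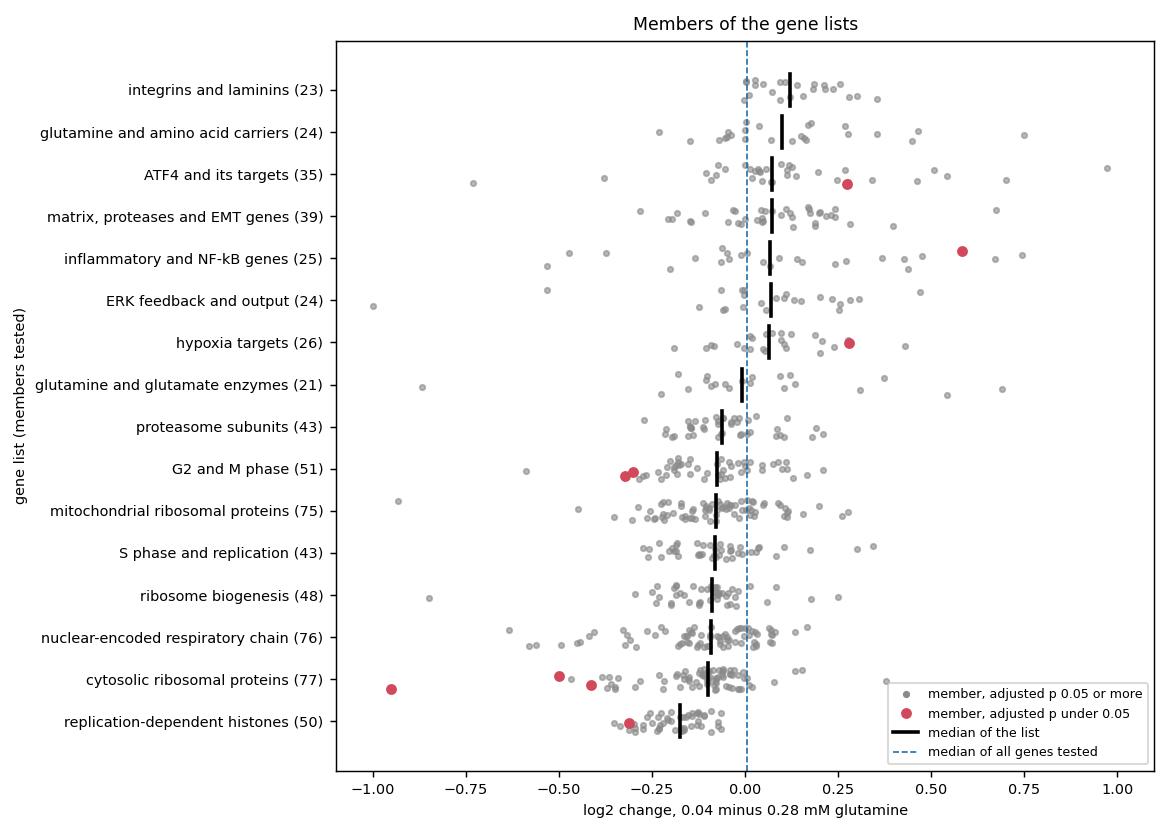
Log2 change between 0.04 and 0.28 mM of the tested members of 16 gene lists, with list medians (black bars) and the median of all genes tested (dashed line); 1 member lies outside the axis. All 50 histones lie below 0 and 22 of 23 integrins and laminins above it, but only the 9 members drawn in red passed.

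Lists of adhesion and matrix genes had medians above 0 in the fit, though not in every pair. Medians in pairs 1, 2 and 3 were 0.038, 0.17 and 0.14 for integrins and laminins. For the matrix, protease and EMT list they were -0.0021, 0.098 and 0.14, with 21 members below 0 in pair 1. Integrins and laminins, through which basal epithelial cells hold to the basement membrane, had a median of 0.12 over 23 tested members of 24, and 22 had a change above 0. At an unadjusted p under 0.05 10 were higher and 0 lower, none passed, and 3 were without overlap. ITGA2, the collagen receptor subunit, was at 222 against 173 CPM (0.36, adjusted p = 0.0540). The laminin chain genes LAMA3 (3156 against 2665 CPM, 0.30, adjusted p = 0.113) and LAMB3 (2621 against 2257 CPM, 0.25, 0.0880) did not pass either. The matrix, protease and EMT list had a median of 0.072 over 39 of 42, 9 higher and 0 lower, with the serpin SERPINE2 at 341 against 285 CPM (0.28, adjusted p = 0.0540), the ectonucleotidase NT5E at 474 against 407 CPM (0.22, 0.0797) and MMP9 at 12.4 against 7.63 CPM (0.67, 0.103). Fibroblast markers, 5 tested of 13, were also above 0 (median 0.36), led by COL6A3 at 70.9 against 52.7 CPM (0.40, adjusted p = 0.0540) and DCN at 29.7 against 21.9 CPM (0.40, 0.113). Their summed level was 193 to 229 CPM at 0.04 mM and 165 to 188 CPM at 0.28 mM, the defining markers COL3A1, LUM and THY1 were at 0 counts in all 6 libraries, and the part of another cell type in these values was not tested.

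Inflammatory, growth factor and hypoxia genes also had medians above 0, with at most 1 member of a list past the threshold. Of the inflammatory and NF-kB genes, 25 tested of 31, 1 rose (BIRC3), 7 were higher and 0 lower at an unadjusted p under 0.05, and the median was 0.067. The list was above 0 in pairs 1 and 2 (0.19 and 0.12) and below it in pair 3 (-0.073). In the middle step its median was -0.019 with 14 of 25 below 0. Without replicate 1 at 0.04 mM the median between the ends was -0.046, and without replicate 1 of every group it was 0.0017. TNFAIP3, which ends NF-kB signalling, was at 26.4 against 18.6 CPM (0.48, adjusted p = 0.0687), and the chemokines CXCL8 at 11.7 against 7.52 CPM (0.74, 0.0797) and CXCL1 at 11.1 against 7.05 CPM (0.67, 0.100). The ERK list had a median of 0.069 over 24 members, 6 higher and 2 lower. DUSP4, a phosphatase that ERK induces and that acts on it, was at 256 against 218 CPM (0.23, adjusted p = 0.0555) and AREG, an EGF receptor ligand, at 1135 against 950 CPM (0.26, 0.0726). Hypoxia targets had a median of 0.064 over 26 of 27, 7 higher and 1 lower, with 1 that rose (NDRG1), PLOD2, a collagen lysyl hydroxylase, at 152 against 126 CPM (0.28, 0.0540) and ANGPTL4 at 139 against 117 CPM (0.24, 0.103).

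The 3 replicate pairs did not weigh equally, and short transcripts moved apart from long ones. Pair ratios had an SD over all genes of 0.332, 0.435 and 0.502 (log2) in pairs 1, 2 and 3. Sorted by the longest annotated transcript, the 269 genes of up to 500 bases had a median change of -0.12 and the 1149 genes over 8000 bases one of 0.031, with the classes between in order. In pair 2 the same medians were -0.17 and 0.076, in pair 1 -0.073 and 0.028, and in pair 3 -0.11 and 0.00035. In pair 3 the classes between were not in order, at 0.030, 0.016, -0.0020 and -0.0018 from short to long. The middle step ran the opposite way, from 0.12 to -0.0083. By GC content of the transcript, the fifth of genes with the lowest share had a median of 0.079 and the highest -0.013, against -0.099 and 0.080 in the middle step. Between the ends the fifth next to the highest had the lowest median, -0.040. Histones, ribosomal proteins and respiratory chain subunits are among the short transcripts, and with an offset per library for length their medians were -0.14, -0.075 and -0.077. With offsets for length and GC content the medians of the histones (-0.14), the ribosomal proteins (-0.062), the G2 and M list (-0.094) and the integrins (0.10) kept their sign. The length offset raised the number of genes past the threshold from 17 to 91, with all 17 among them, and both offsets gave 55 with 16 of the 17. What sets the length pattern was not tested.

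**Figure D5:**
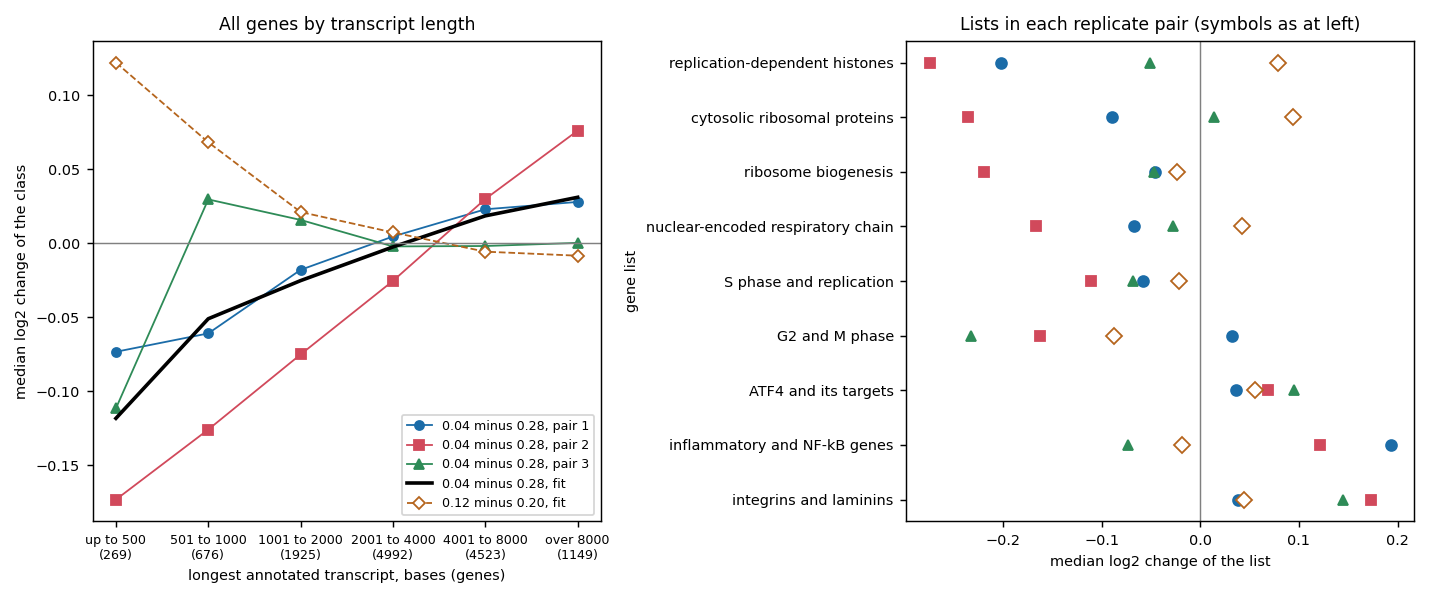
Left, median log2 change of all tested genes in 6 classes of transcript length (bases, number of genes in parentheses) for each replicate pair, for the fit of 0.04 minus 0.28 mM and for 0.12 minus 0.20 mM. Right, medians of 9 gene lists in each pair and in the middle step: for histones and ribosomal proteins the diamond is above 0 while pairs 1 and 2 are below it, and for G2 and M phase genes pair 1 alone is above 0.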

How the data were processed

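The authors deposited whole-number read counts per gene for 15 libraries, made from RNA depleted of rRNA with ERCC spike-ins added, per the labels' protocols. The build is GRCh38.p14, per the submitters' processing notes, and for the aligner, counting and strand rule: not given in the sources used here. Each of the 15 columns was used. The main test was edgeR 4.0.16 (R 4.3.3): filterByExpr (minimum count 10, total 15) on the 5 groups, TMM factors, a quasi-likelihood fit of the 12 limited libraries with the replicate number as a block, and Benjamini-Hochberg adjustment over 13828 genes at 0.05. CPM use TMM library sizes. The numbers pair the samples in the data (same-number libraries r 0.196 to 0.489, different numbers -0.406 to -0.0241), though no label says what they stand for. If they were not separate cultures, p-values measure technical spread. Coordinates and sequences are RefSeq's (GRCh38.p14). Symbols come from a gene name reference, with 54 taken from GENCODE 29. Lengths, GC content and overlap also come from GENCODE 29, possibly another gene set than the counted one. The comparison, the lists and the panel were chosen with earlier results of these data known. Named genes are the 15 each way with adjusted p under 0.05, at least 5 CPM and 1 sign in 3 pairs, filled to 10 each way by p, the panel, and 4 per list by p; some of these are not reported here. In simulated data for this comparison (13828 genes), the test found 73% of log2 changes of 1 and 53% of 0.5 (100 genes each), with 7 false among 133 calls. Alternatives included DESeq2 1.42.0.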

Additional observations from a re-analysis of the deposited data

How the results depend on the processing

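The 17 genes at 0.04 against 0.28 mM became 0 without the replicate block, 6 with all 15 libraries, 101 with only the 6 libraries compared (all 17 among them), 79 by DESeq2 (12 of the 17, with 10992 genes and 4 of the 17 given no adjusted p), 11 scaled to ERCC counts (4 shared), 162 with no filter beyond 1 count, 29 with libraries thinned to 3704170 counts, 91 with a length offset and 55 with length and GC offsets. Without the 2 libraries over 1% mitochondrial rRNA the count was again 17, but 5 genes were shared. Leave-outs of a library or a replicate number gave 1 to 59. The 2 genes at 0.12 against 0.20 mM became 0 without the block, 40 with no filter, 1 thinned, 6 with both offsets, 1 without the 2 libraries, and 1 to 105 with a replicate number left out. The slope's 0 became 2163 with all 15 libraries, 24 by DESeq2, 46 with no filter, 3 with a GC offset, 28 with both offsets and 0 to 12 with a replicate number left out. The offsets and the leaving out of 2 libraries were chosen after seeing the data. The cause of these differences was not tested. All 17 genes kept their direction in every alternative run.

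The named genes that changed sign were all in the panel, and most were near 0, but DDIT3 (0.46) and TXNIP (0.13) were not. With ERCC scaling SLC1A5 was at 0.072, SLC38A1 at 0.11 and MYC at 0.11. The SLC38A1 log2 change was 0.00023 with only 6 libraries, 0.0034 by DESeq2, 0.0029 with DESeq2 size factors and 0.00899 thinned. Without the 2 libraries, SLC38A1 was at 0.067, SLC7A5 at -0.0011, DDIT3 at -0.20, SESN2 at -0.046, PHGDH at -0.064, MYC at 0.0077 and CDKN1A at -0.033. TRIB3 was at -0.0042 without the block, and MYC at 0.036 with a GC offset and 0.037 with both. Over the leave-outs the values spanned 0 for SLC38A1 (-0.074 to 0.086), SLC7A5 (-0.016 to 0.071), DDIT3 (-0.30 to 1.34), TRIB3 (-0.11 to 0.14), SESN2 (-0.070 to 0.098), PHGDH (-0.028 to 0.17), TXNIP (-0.048 to 0.26), MYC (-0.065 to 0.029) and CDKN1A (-0.032 to 0.053). Depth limits low genes such as ASNS, DDIT3 and CHAC1. The 53% of changes of 0.5 found in the simulated data belongs to a setting with 133 calls. With 17 calls, as between the ends here, the adjusted threshold is stricter, so that share may be too high for these data.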

Other observations

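Several metabolic lists had medians within 0.05 of 0 and single genes near the threshold. Polyamine metabolism was among them: AZIN1, an inhibitor of antizyme, was at 159 against 133 CPM (0.28, edgeR adjusted p = 0.0622), ODC1, which makes putrescine, at 608 against 528 CPM (0.20, 0.181), SAT1, which acetylates polyamines, at 57.4 against 45.6 CPM (0.30, 0.175) and SRM, spermidine synthase, at 203 against 228 CPM (-0.17, 0.240), in a list of 18 with a median of -0.023. In the nucleotide list (30 genes, median -0.041) NME1, a nucleoside diphosphate kinase, was at 53.8 against 72.3 CPM with no overlap (-0.41, adjusted p = 0.0590). Glutathione and NRF2 targets had a median of 0.028 over 32 members, with GCLM, of glutathione synthesis, at 64.9 against 50.6 CPM (0.33, 0.0631). ALDH1L1, a folate enzyme, was at 5.23 against 8.56 CPM (-0.71, 0.0797). Cholesterol and fatty acid synthesis had a median of -0.027 over 32 members, 4 lower and 0 higher at an unadjusted p under 0.05, the unfolded protein response list -0.0069 over 25, and autophagy and lysosome genes -0.0065 over 39, with 3 higher and 3 lower.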
